A study of Saccharomyces cerevisiae with 16 samples.

Results

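The messages of 5 yeast cell wall proteins, CCW12, SED1, SPI1, HSP150 and CIS3, were followed through 16 sequencing libraries of Saccharomyces cerevisiae strain BY4741 in which read ends report pseudouridine. The genes were taken as 5 named windows of the listed coordinates, chosen by gene with earlier results of these data known. The windows were 12:369550-370200 for CCW12 (read in the reverse direction), 4:600700-601950 for SED1 (forward), 5:468270-469000 for SPI1 (forward), 10:120350-121800 for HSP150 (forward) and 10:122150-123050 for CIS3 (reverse). Together they held 4594 of the 5704895 positions with reads, and they entered the fits as 5 of 12163 windows and 1000-nt bins of the genome. The submitters' processing notes name sacCer3. At a reference gene, FBA1, however, the highest listed position with many reads lay 358 nt below the gene's highest coordinate in the current RefSeq annotation. Positions are therefore given as listed and were not carried onto another build.

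The wall of budding yeast is a mesh of glucan and chitin covered by mannoproteins, and its composition changes with growth phase and with stress. CCW12, SED1 and SPI1 encode small secreted proteins that receive a glycosylphosphatidylinositol (GPI) anchor and are then linked to wall glucan. HSP150 and CIS3 belong to the PIR family, proteins with internal repeats that are joined to glucan directly, and their genes lie next to each other on chromosome 10. CCW12 is the major structural mannoprotein of growing cells, SED1 is a main stress-induced wall protein of stationary cells, SPI1 is known for induction in stationary phase and weak acid stress, HSP150 is known for induction by heat, and CIS3 is a PIR protein of growing cells.

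The 2 liquid cultures of BY4741, a haploid MATa laboratory strain, were grown to log phase, labelled OD260 0.8. A portion of one was then held for 30 min at 45 °C (heat shock), and a portion of the other was grown on to stationary phase, labelled OD260 4. Each of these 4 experiments gave 4 libraries. Natural poly(A) RNA was treated with CMCT, a carbodiimide that leaves a bulky adduct on pseudouridine and stops reverse transcriptase there, or mock treated, and unmodified RNA transcribed in vitro (IVT) from amplified copies of the same total RNA was handled in both ways. Log phase therefore had 2 libraries of each kind and the other conditions 1, from cultures rather than from repeated growth. In the fits of summed reads, p-values thus measure the spread between the 2 log-phase cultures. The spread used by tests over several experiments is given with those tests. The log libraries are named below by what became of their culture, pre-heat-shock or pre-stationary. The windows are poly(A) messages measured over whole populations, and a change in RNA per cell cannot be told apart from a change in the share of cells that carry the message.

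The library totals, with each repeated count taken once, ran from 1636982 to 10416279 reads, of which the 5 messages held between 0.434% and 2.03%. Ribosomal DNA took 9.58% to 20.3% of the natural reads and 0.885% to 2.29% of the IVT reads. Levels are given as reads-per-million (RPM) of these totals. The 95% counting intervals (exact Poisson) reached at most 2.63% of the level for CCW12, 4.86% for HSP150, 8.47% for SED1, 10.3% for CIS3 and 21.5% for SPI1, and they cover counting error only.

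One conflict between labels and reads bears on every comparison with log phase. HSP104, a heat-induced disaggregase, stood at 2455, 2536 and 3004 RPM in the pre-heat-shock log libraries of natural −CMCT, natural +CMCT and IVT +CMCT, and at 154 RPM in the remaining one, IVT −CMCT. In the 4 libraries labelled heat shock it stood at 136 to 210 RPM, in the pre-stationary log libraries at 116 to 200 RPM, and in the stationary libraries at 476 to 802 RPM. The heat-induced chaperones SSA4 (2105, 1999 and 1053 RPM against 21.3 to 52.8 in the heat shock libraries) and HSP82 (2641, 2514 and 1132 RPM against 146 to 258) had the same order. Across 9909 windows and bins, the log2 profile of the natural −CMCT pre-heat-shock log library correlated at 0.989 with that of its +CMCT partner, and the +CMCT one at 0.945 with IVT +CMCT but at 0.834 with IVT −CMCT. Those 3 libraries thus carry the heat-induced messages under a log-phase label, and the libraries labelled heat shock do not. The groups below follow the labels, levels and reads are given by library, and the natural fold changes are also given without these libraries. Whether labels or column names were exchanged was not tested, and the direction of each natural difference between heat shock and log phase below rests on the labels.

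MFA2, the a-factor gene that a MATa strain should express, was read at 25.1 to 44.1 RPM in those 3 libraries and at 81.7 to 336 RPM in the other 9 non-stationary libraries. It was the only 1 of 6 mating-type genes that could be placed.

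**Figure D1:**
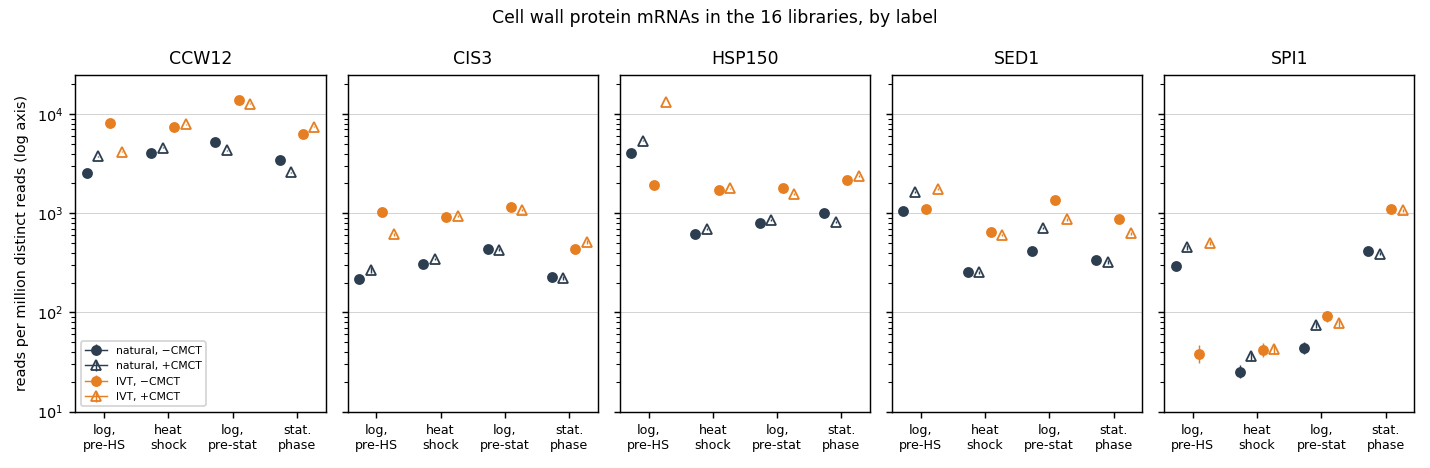
Levels of the 5 messages in the 16 libraries, in RPM on a log axis, by labelled experiment, with natural and IVT RNA and +CMCT and −CMCT marked apart and bars for 95% counting intervals. HSP150 and SPI1 stand apart in 3 of the 4 pre-heat-shock log libraries, and SPI1 also in all 4 stationary libraries.

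CCW12 was the most abundant of the GPI group in every library. Natural −CMCT levels were 2563 RPM (pre-heat-shock log), 4078 (heat shock), 5164 (pre-stationary log) and 3404 (stationary), and natural +CMCT levels in the same order were 3747, 4589, 4324 and 2589 RPM. In IVT RNA the −CMCT levels were 8056, 7411, 13866 and 6226 RPM and the +CMCT levels 4186, 7854, 12687 and 7413 RPM. The pre-heat-shock log libraries held the lowest natural −CMCT level and, with CMCT, the lowest IVT level. In natural −CMCT RNA both the heat shock and the stationary level lay between those of the log cultures.

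SPI1 had the widest range of the 5, from 25.3 to 1098 RPM. Its natural −CMCT levels were 294 RPM (pre-heat-shock log), 25.3 (heat shock), 43.8 (pre-stationary log) and 417 (stationary), and with CMCT they were 453, 36.0, 75.2 and 392 RPM. In IVT RNA SPI1 stood at 38.2, 41.9, 91.7 and 1098 RPM without CMCT and at 500, 42.6, 77.9 and 1072 RPM with it. All 4 stationary libraries and the 3 conflicting ones stood at 294 RPM or above, and the other 9 were at or below 91.7 RPM. This grouping was read from the SPI1 levels themselves, and how many other features split in this way was not counted.

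Against its own pre-stationary log library, the stationary library held a 9.51-fold higher SPI1 level in natural −CMCT RNA, 5.21-fold in natural +CMCT, 12-fold in IVT −CMCT and 13.8-fold in IVT +CMCT. The pre-heat-shock log libraries exceeded the pre-stationary ones 6.71-fold, 6.03-fold and 6.42-fold in natural −CMCT, natural +CMCT and IVT +CMCT, whereas the IVT −CMCT ratio was 0.416. Within the pre-heat-shock IVT pair, the +CMCT library held 13.1-fold more SPI1 than the −CMCT library, although both are labelled as the same RNA.

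SED1 followed the conflicting libraries but not stationary phase. Natural −CMCT levels were 1052 RPM (pre-heat-shock log), 257 (heat shock), 413 (pre-stationary log) and 335 (stationary), and natural +CMCT levels were 1648, 253, 704 and 323 RPM. In IVT RNA they were 1109, 650, 1362 and 872 RPM without CMCT and 1768, 601, 865 and 627 RPM with it. The natural pre-heat-shock log libraries were the highest natural libraries, 2.55-fold and 2.34-fold over the pre-stationary ones without and with CMCT, while both stationary natural libraries lay below both pre-stationary ones.

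Of the PIR pair, HSP150 followed the conflict between labels and reads most closely. It stood at 4061 RPM (pre-heat-shock log), 613 (heat shock), 805 (pre-stationary log) and 1008 (stationary) in natural −CMCT RNA, and at 5408, 688, 852 and 814 RPM in natural +CMCT. IVT levels were 1917, 1731, 1782 and 2175 RPM without CMCT and 13197, 1779, 1561 and 2391 RPM with it. The 3 libraries with high HSP104 held 5.04-fold, 6.34-fold and 8.45-fold the HSP150 level of their pre-stationary counterparts, and IVT −CMCT held 1.08-fold. The remaining natural libraries lay between 613 and 1008 RPM and the remaining IVT libraries between 1561 and 2391 RPM, below all 3.

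CIS3 was low throughout and lowest in stationary phase or in the conflicting libraries. Natural −CMCT levels were 219 RPM (pre-heat-shock log), 307 (heat shock), 435 (pre-stationary log) and 227 (stationary), with 269, 346, 429 and 221 RPM after CMCT. IVT levels were 1033, 919, 1168 and 438 RPM without CMCT and 611, 939, 1075 and 512 RPM with it. Each stationary library was below its pre-stationary log counterpart in all 4 kinds of RNA.

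Levels can be set side by side between genes only per length. Per kb of window, natural −CMCT reads put CCW12 first in each experiment, at 3937, 6264, 7932 and 5230 RPM per kb (pre-heat-shock log, heat shock, pre-stationary log, stationary). HSP150 came next in all 4, at 2798, 423, 555 and 695 RPM per kb. The order below changed between libraries, as SED1 (841, 205, 330 and 268 RPM per kb), CIS3 (243, 341, 482 and 252) and SPI1 (402, 34.6, 59.9 and 570), in turn, came next in pre-heat-shock log, in both heat shock and pre-stationary log, and in stationary phase.

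The fit across all windows and bins, edgeR's quasi-likelihood test on natural −CMCT reads, called no feature in either contrast. For the libraries labelled heat shock against log phase, 0 of 12079 features passed an adjusted p of 0.05 (0% called), with 22 at an unadjusted p under 0.05, and DESeq2 also called 0, with 82 unadjusted. For stationary phase 0 passed (0% called), with 3335 unadjusted, and DESeq2 called 1053 features, none of them a member. The spread came from 2 log cultures, 1 of which carried the conflicting libraries, with 1 residual degree of freedom and a biological coefficient of variation of 0.465.

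In that natural fit the log2 differences of heat shock minus log phase were 0.12 ± 0.71 (SE) for CCW12, −1.45 ± 0.97 for SED1, −2.66 ± 1.42 for SPI1, −1.92 ± 1.17 for HSP150 and −0.05 ± 0.88 for CIS3. All had an adjusted p of 1 in edgeR, and none passed unadjusted, while DESeq2 gave SPI1 an unadjusted p of 0.0171. Against the pre-stationary log library alone, which leaves out the conflicting library, the differences were −0.33, −0.68, −0.78, −0.38 and −0.49 in the same gene order. CCW12 changed sign, and the sizes for SED1, SPI1 and HSP150 were smaller by more than 1.5 times. Against the pre-heat-shock log library alone they were 0.75, −1.95, −3.46, −2.65 and 0.57, so that CIS3 changed sign as well.

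For stationary minus log phase the natural log2 differences were −0.11 ± 0.71 for CCW12 (edgeR adjusted p = 0.93), −1.03 ± 0.95 for SED1 (0.50), 1.41 ± 1.19 for SPI1 (0.46), −1.17 ± 1.13 for HSP150 (0.52) and −0.45 ± 0.90 for CIS3 (0.76). Without the conflicting library, against the culture's own log library, they became −0.56, −0.27, 3.29, 0.36 and −0.90. HSP150 changed sign, and the other 4 moved by more than 1.5 times. Against the pre-heat-shock log library alone they were 0.53, −1.54, 0.62, −1.89 and 0.17, so that CCW12 and CIS3 changed sign. With 1 library on each side no test was possible there.

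The IVT −CMCT libraries gave the same contrasts without any of the 3 conflicting libraries, and their 2 log cultures were closer, with a coefficient of variation of 0.225. For stationary phase 56.1% of 11965 features were called at an adjusted p of 0.05, and 2 of the 5 members were among them, below that share. SPI1 rose by 4.33 ± 0.41 on the log2 scale (edgeR adjusted p = 8.67e-14), from 38.2 and 91.7 RPM in the log libraries to 1098 RPM. CIS3 changed by −1.05 ± 0.39 (adjusted p = 0.0184). DESeq2, which called 33.4% of the features, and scaling by library totals, which called 45.6%, called 2 of the 5 members as well, so that the members' share lay above that of all features with DESeq2. With either log library left out, the difference ran from 3.71 to 5.21 for SPI1 and from −1.29 to −0.87 for CIS3.

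The other 3 members did not pass in that contrast, with log2 differences of −0.56 ± 0.35 for CCW12 (edgeR adjusted p = 0.171), 0.52 ± 0.35 for HSP150 (0.202) and −0.23 ± 0.37 for SED1 (0.616). The sign of HSP150 turned to −0.14 under library totals. With the IVT +CMCT libraries, where the pre-heat-shock one is a conflicting library, SPI1 came to 1.70 and CIS3 to −0.76 and neither was called. Library totals also moved the median of all features, to −0.69 in this contrast against −0.03 after TMM scaling and, in natural RNA, to −1.16 against −0.22.

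For heat shock in IVT −CMCT RNA, 5 features (0.0418%) were called and no member was. The log2 differences ran from −0.82 ± 0.39 for SED1 (edgeR adjusted p = 1.00) to 0.02 ± 0.36 for HSP150, with −0.55 ± 0.44 for SPI1, −0.47 ± 0.35 for CCW12 and −0.15 ± 0.37 for CIS3. HSP150, named for its induction by heat, differed from log phase by less than its error in these libraries, in which HSP104 itself differed by 0.14 ± 0.39.

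Among wall genes beyond the 5, few could be placed in the listed coordinates. Of 19 GPI wall protein genes 6 were placed, namely the members CCW12, SED1 and SPI1 and, beyond them, CWP1, PST1 and ECM33. Of 5 PIR genes 2 were placed, both of them members (HSP150 and CIS3). Of 19 genes for enzymes of wall polymers 3 were placed. In natural RNA none of them passed in either contrast. In IVT −CMCT RNA of stationary phase 1 of the 6 GPI genes rose (SPI1) and 2 fell, PST1 (−1.48, edgeR adjusted p = 0.00276) and ECM33 (−1.48, adjusted p = 0.00132), both GPI proteins, so that 3 of 6 were called where 56.1% of all features were. CWP1, a mannoprotein of the wall, did not pass, with −0.28 ± 0.36.

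Of the 3 enzymes, GAS1, a glucan-remodelling transferase (−1.08, edgeR adjusted p = 0.0166), and BGL2, a wall glucanase (−1.34, adjusted p = 0.00325), fell, and EXG2, an exo-glucanase (1.48, adjusted p = 0.00012), rose, beside the same 56.1%. No placed wall gene was called for heat shock in IVT RNA. PST1, a gene known for induction by wall damage, stood at 499 to 767 RPM in the 3 conflicting libraries, at 29.1 to 46.6 RPM in the other 9 non-stationary libraries and at 6.60 to 10.7 RPM in stationary phase, so that it shared the split of HSP150 but not the stationary level of SPI1.

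Over the 8 natural libraries the levels of 338 windows and bins were compared with each member by Pearson's r of log2 levels. Each bin holds listed sites of a single gene and is named by it, and a gene can have several bins. The comparison describes libraries that share cultures and depth. As a check added after seeing the data, r is also given over the 6 libraries left without the natural pre-heat-shock log ones. HSP150 was most like CPR6 (0.99), SSA4 (0.99) and YRO2 (0.97), the first 2 of them chaperone genes induced by heat, and over 6 libraries these fell to 0.67, 0.91 and 0.26. SED1 was most like YOR220W (0.94), HSP150 itself (0.91) and DIA1 (0.90), with 0.69, 0.51 and 0.41 over 6 libraries. SPI1 was most like SOL1 (0.97), YMR090W (0.96) and IDH2 (0.96), with 0.96, 0.96 and 0.98. CCW12 was most like YEF3 (0.91), CIS3 (0.90) and TRX2 (0.90), with 0.92, 0.89 and 0.97. CIS3 was most like the ribosomal protein genes RPL8B and RPL31B and the ribosome-associated factor EGD1 (0.94 each, and 0.94 each over 6 libraries).

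HSP150 and CIS3 could not be separated over one stretch of sequence. Positions 10:121368-121396 in HSP150 and 10:122395-122423 in CIS3, 29 nt each and running in opposite directions as the genes do, had the same counts at 20 of 29 paired positions in all 8 natural libraries. Over all 8 natural libraries the stretch held 2233 reads in HSP150 and 2224 in CIS3. In IVT RNA no pair was equal in all 8 libraries, with 4285 reads in HSP150 and 3930 in CIS3. The study's methods describe a random choice between several matches of a read, whereas these natural counts were the same in both places, and which gene the reads came from cannot be told apart.

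This weighed little on HSP150 and heavily on CIS3 where HSP150 was high. The stretch held 55.7% (exact 95% interval 52.4 to 58.9), 53.3% (49.0 to 57.5) and 54.8% of CIS3 reads in the natural +CMCT, natural −CMCT and IVT +CMCT libraries labelled pre-heat-shock log, and 6.05% in the IVT −CMCT one. It held 7.97% to 10.3% in the heat shock libraries, 5.23% to 8.96% in the pre-stationary log ones and 13.6% to 15.6% in the stationary ones. Without the stretch CIS3 stood at 102 RPM (pre-heat-shock log), 277 (heat shock), 398 (pre-stationary log) and 192 (stationary) in natural −CMCT RNA, and at 119, 310, 391 and 191 RPM with CMCT. The ratio of heat shock over pre-heat-shock log in natural −CMCT RNA became 2.71, and CIS3 was then lower in the libraries with high HSP150 than in any other library of the same kind of RNA.

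**Figure D2:**
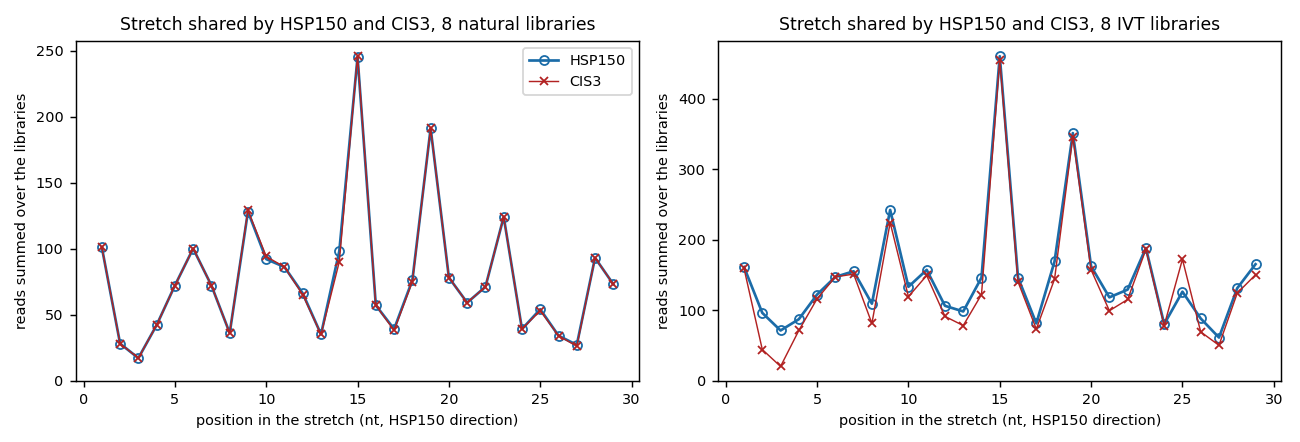
Reads by position over the stretch that HSP150 and CIS3 share, summed over the 8 natural libraries and over the 8 IVT libraries, with CIS3 drawn in the reverse direction so that paired positions align. The natural counts of both genes coincide at most of the 29 positions, and the IVT counts follow the same shape but differ by position.

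Repeats within a gene gave equal counts too. Among positions with at least 30 natural reads, 34 of 280 in SED1 shared their natural counts with another SED1 position, mostly 153 nt, 42 nt or 66 nt away. In HSP150 18 of 647 positions were shared with CIS3 and 12 with HSP150 itself, at offsets of 114 nt and 195 nt. CIS3 had 18 of 152 such positions, and CCW12 (491 positions) and SPI1 (59 positions) had 0. A stop at such a position in SED1, HSP150 or CIS3 belongs to either copy.

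The mean 3′ share of reads was higher in natural than in IVT RNA for 4 of the messages without CMCT, a difference that this number of experiments could not bring past the threshold. In the −CMCT libraries the share of reads in the 3′ part of the window, beyond its midpoint, was higher in natural than in IVT RNA by 15.0 ± 4.90 percentage points for CCW12 (mean ± SD, n = 4 experiments), 14.4 ± 11.3 for CIS3, 8.56 ± 4.74 for SPI1 and 6.68 ± 1.65 for HSP150, each in 4 of 4 experiments. An exact sign-flip permutation test gave a two-sided p of 0.13, the smallest that 4 experiments allow (0.156 adjusted over the 5 genes). SED1 differed by 0.0715 ± 5.82 points (exact p = 1). With the +CMCT libraries the mean was −0.50 for CCW12, −3.64 for HSP150, −9.01 for SED1 and −0.62 for SPI1, so that the direction held for CIS3 alone. Counted as the share of positions with reads in place of reads, the −CMCT difference was 0.21 ± 2.68 for CCW12, with natural RNA higher in 1 of 4 experiments.

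Stationary RNA was read mostly from its 3′ end. In natural −CMCT RNA the 3′ share in the stationary library was 94.2% for HSP150 against 61.6% to 63.0% in the other 3, 87.0% for SED1 against 53.4% to 64.6%, and 84.8% for SPI1 against 53.4% to 56.1%. For CIS3 it was 94.1% against 67.7% to 86.9% and for CCW12 81.8% against 61.1% to 74.4%. IVT RNA had the same order for HSP150 (88.5% against 53.8% to 56.5%), SED1 (91.0% against 56.3% to 62.4%), CIS3 (86.0% against 57.6% to 64.1%) and SPI1 (70.7% against 45.8% to 50.9%), whereas CCW12, with 62.3%, lay within its other 3 values, 46.3% to 66.2%. The exact 95% binomial intervals of these shares spanned at most 2.28 points for CCW12, 3.20 for HSP150, 5.80 for SED1, 5.81 for CIS3 and 21.7 for SPI1. Among the natural −CMCT libraries all 5 shares were thus highest in the single stationary one, and how far this bears on the stationary levels above was not tested.

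**Figure D3:**
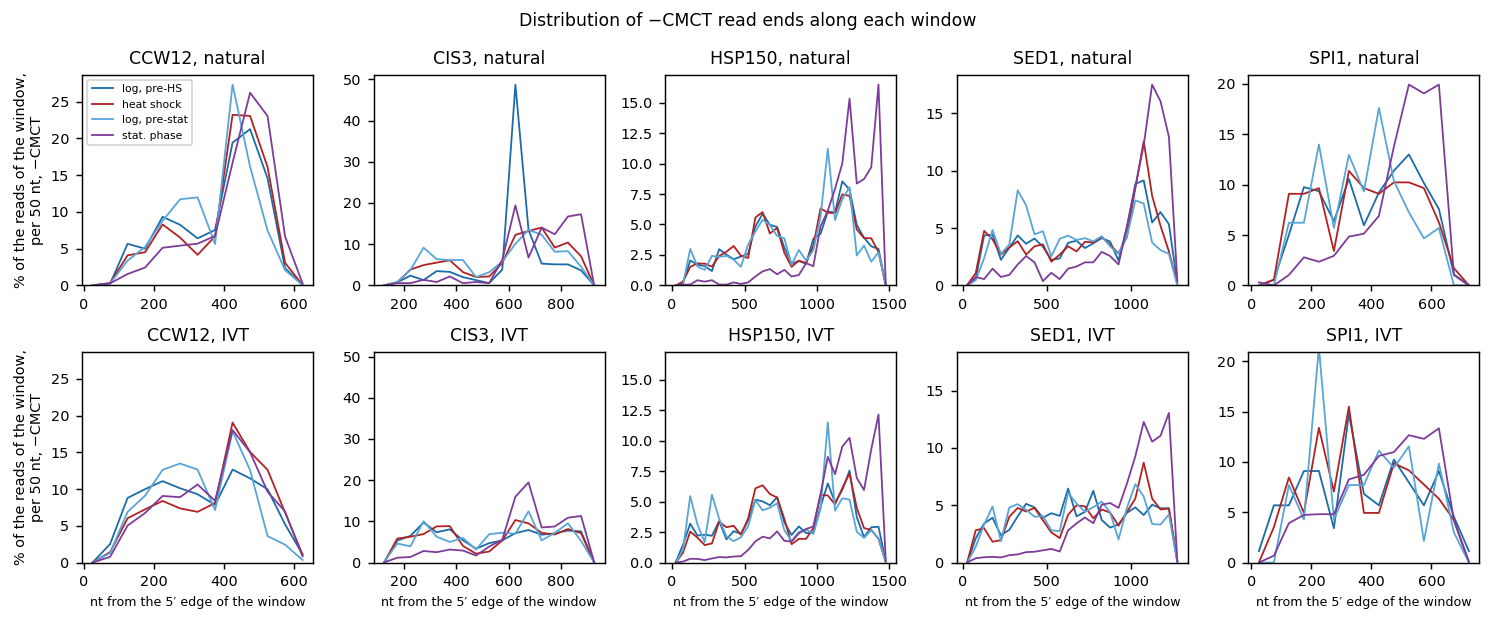
Share of the −CMCT reads of each window in steps of 50 nt from the 5′ edge, in percent, for natural and IVT RNA of the 4 experiments. The stationary curves of HSP150, SED1 and SPI1 rise towards the 3′ end, where 84.8% to 94.2% of their natural reads lie beyond the midpoint.

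Pseudouridine candidates were read from the ratio of +CMCT to −CMCT reads that end at a position, (+CMCT + 1)/(−CMCT + 1), at positions with at least 20 natural reads. The criteria applied, adapted from the study's inclusive ones, which take plain ratios at more than 10 reads, asked for a natural ratio of at least 3 that was also at least 3 times the IVT ratio. In the pre-heat-shock log experiment 83 of 921 member positions met them (9.01%, against 2.76% of all positions), in heat shock 7 of 687 (1.02% against 1.69%), in pre-stationary log 100 of 799 (12.5% against 11.7%) and in stationary phase 296 of 499 (59.3% against 76.1%). Over the genome the share thus ran from 1.69% to 76.1% between experiments, and outside the pre-heat-shock log experiment the members lay near or below it.

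With more than 10 reads, the minimum in the study's text, the counts were 138 of 1623 (8.50%, against 4.73% of all positions) and 21 of 1111 (1.89% against 3.50%) in the first 2 experiments. In pre-stationary log they were 230 of 1284 (17.9% against 17.3%) and in stationary phase 500 of 827 (60.5% against 71.8%). The criteria use reads as listed, and the +CMCT and −CMCT libraries differ in depth and in how much of a message they hold. With ratios taken relative to the reads of the gene or bin, an alternative chosen after seeing the data, the members met them at 37 (4.02%, against 5.16% of all positions), 19 (2.77% against 2.96%), 68 (8.51% against 8.09%) and 17 positions (3.41% against 4.64%) in the same order of experiments. In the pre-heat-shock log experiment the members' share was then below that of all positions. There the IVT libraries that form the ratio are a conflicting pair, and the CCW12 level in IVT +CMCT was 0.520 times that in IVT −CMCT, against 0.915 to 1.19 in the other 3 experiments.

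**Figure D4:**
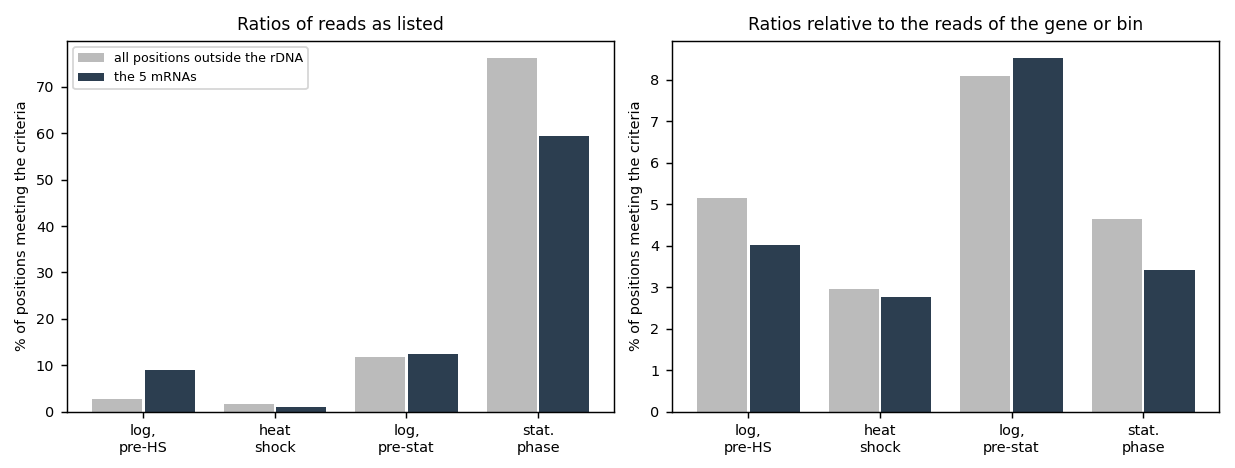
Share of positions, in percent, that met the stop criteria in each experiment, over all positions and over the 5 messages, with reads as listed and relative to the reads of the gene or bin. The share over all positions runs from 1.69% to 76.1% as listed and from 2.96% to 8.09% relative to the gene or bin.

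CCW12 held most of the member positions that met the criteria in pre-heat-shock log and in stationary phase, but not in the other experiments. In stationary phase it also held 288 of the 499 member positions with enough reads. In pre-heat-shock log (2.76% of all positions) it met them at 77 of 319 positions, HSP150 at 3 of 514, SED1 at 2 of 64, SPI1 at 1 of 2 and CIS3 at 0 of 22. Relative to the reads of the gene CCW12 met them there at 17 of 319, beside 5.16% of all positions. In heat shock (1.69% of all positions) these counts were 2 of 458 for CCW12, 3 of 69 for CIS3, 2 of 141 for HSP150 and 0 of 19 for SED1, and SPI1 had no position with enough reads. In pre-stationary log (11.7% of all positions) CCW12 met them at 44 of 430, SED1 at 30 of 119, HSP150 at 19 of 169, CIS3 at 7 of 80 and SPI1 at 0 of 1. In stationary phase, where most positions of the genome met them (76.1%), the counts were 160 of 288, 18 of 29, 75 of 117, 15 of 20 and 28 of 45 in that gene order.

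For HSP150 in the pre-heat-shock log experiment, the median IVT log2 ratio was 3.48 against 0.81 in natural RNA, and its IVT +CMCT library had a 6.88-fold higher HSP150 level than its −CMCT library. In CIS3 the medians were 2.96 and 0.67, while its IVT +CMCT level was 0.591 times the −CMCT level and the shared stretch held 54.8% of its reads in the former and 6.05% in the latter. In CCW12 the medians were 0.10 in IVT and 1.09 in natural RNA. Relative to the reads of the gene, HSP150 met the criteria there at 17 of 514 positions and CCW12 at 17 of 319, while CIS3 stayed at 0 of 22 (5.16% of all positions). The part of this pair of libraries in the counts was not tested.

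No member position met the criteria in all 3 non-stationary experiments, and the share of all positions that did so was not counted. In 2 of the 3 they were met at 10 of the 725 member positions with enough reads in at least 2 (1.38%, against 0.51% of all such positions), of which 8 lay among the 420 of CCW12, at 369873, 370000, 370035, 370041, 370052, 370075, 370093 and 370096. The other 2 were CIS3 122413 and HSP150 121378, which are paired positions of the shared stretch and so the same reads. Relative to the reads of the gene, 8 member positions met them in 2 experiments (1.1%, against 0.816%) and 0 in 3.

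CCW12 370000, a coding position that the study lists as a candidate, had the highest mean natural ratio of the 311 CCW12 positions with enough reads in all 3 non-stationary experiments, 3.70 ± 2.16 on the log2 scale (SD, n = 3). Its natural +CMCT and −CMCT reads were 39 and 1 in pre-heat-shock log, 107 and 43 in heat shock, 88 and 1 in pre-stationary log and 13 and 4 in stationary phase. Its IVT reads in the same order were 32 and 12, 134 and 24, 45 and 21, and 24 and 24. The log2 ratio was high in both log experiments (4.32 and 5.48 in natural RNA against 1.34 and 1.06 in IVT) and was lower in natural than in IVT RNA in heat shock (1.30 against 2.43).

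The study had picked 370000 from these same libraries, in both log samples, so its ratios, ranks and scores are a description only. Among member positions it ranked 3 in pre-heat-shock log, 193 in heat shock and 1 in pre-stationary log. The study's regression score, the residual of log +CMCT on log −CMCT reads in units of its SD, was 7.23, 2.44 and 5.49, at percentiles 99.93, 81.6 and 99.86 of all positions with enough reads, and in stationary phase it was 0.71. The next highest means in CCW12 were those of 370092 (3.26 ± 0.71) and 369909 (3.25 ± 0.54), which lie within the spread of 370000 and vary less between experiments.

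The other CCW12 positions on the study's list are likewise given as a description only, since the list was made from these libraries. At 370091, also coding, natural reads were 17 and 1 in pre-heat-shock log, under the minimum of 20, 34 and 11 in heat shock and 126 and 2 in pre-stationary log, with a log2 ratio of 5.40 in the last. At 370035, also coding, they were 29 and 4, 43 and 16, and 114 and 3. In heat shock the IVT log2 ratio was above the natural one at 370091 (2.96 against 1.54) and at 370035 (2.30 against 1.37). At 370107, in the 5′ untranslated region, they were 8 and 0, again under the minimum, 17 and 5, and 60 and 1, and in heat shock its natural log2 ratio of 1.58 was above the IVT ratio of 1.33. Its IVT reads in pre-heat-shock log, from the conflicting pair, were 4 and 42. Position 369909 had 40 and 2 natural reads in pre-heat-shock log, 116 and 17 in heat shock and 163 and 16 in pre-stationary log, and its IVT log2 ratio was as high as the natural one in heat shock (2.86 against 2.70).

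In heat shock the highest CCW12 ratio was at 369873, with 26 natural reads with CMCT and 0 without (IVT 57 and 8). That position also had 31 and 0 natural reads in pre-stationary log (IVT 25 and 14) but only 3 and 2 in pre-heat-shock log. The neighbours 369849, 369850 and 369899 followed in heat shock with log2 ratios of 3.52, 3.52 and 3.87, beside IVT ratios of 2.89, 1.83 and 2.46.

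**Figure D5:**
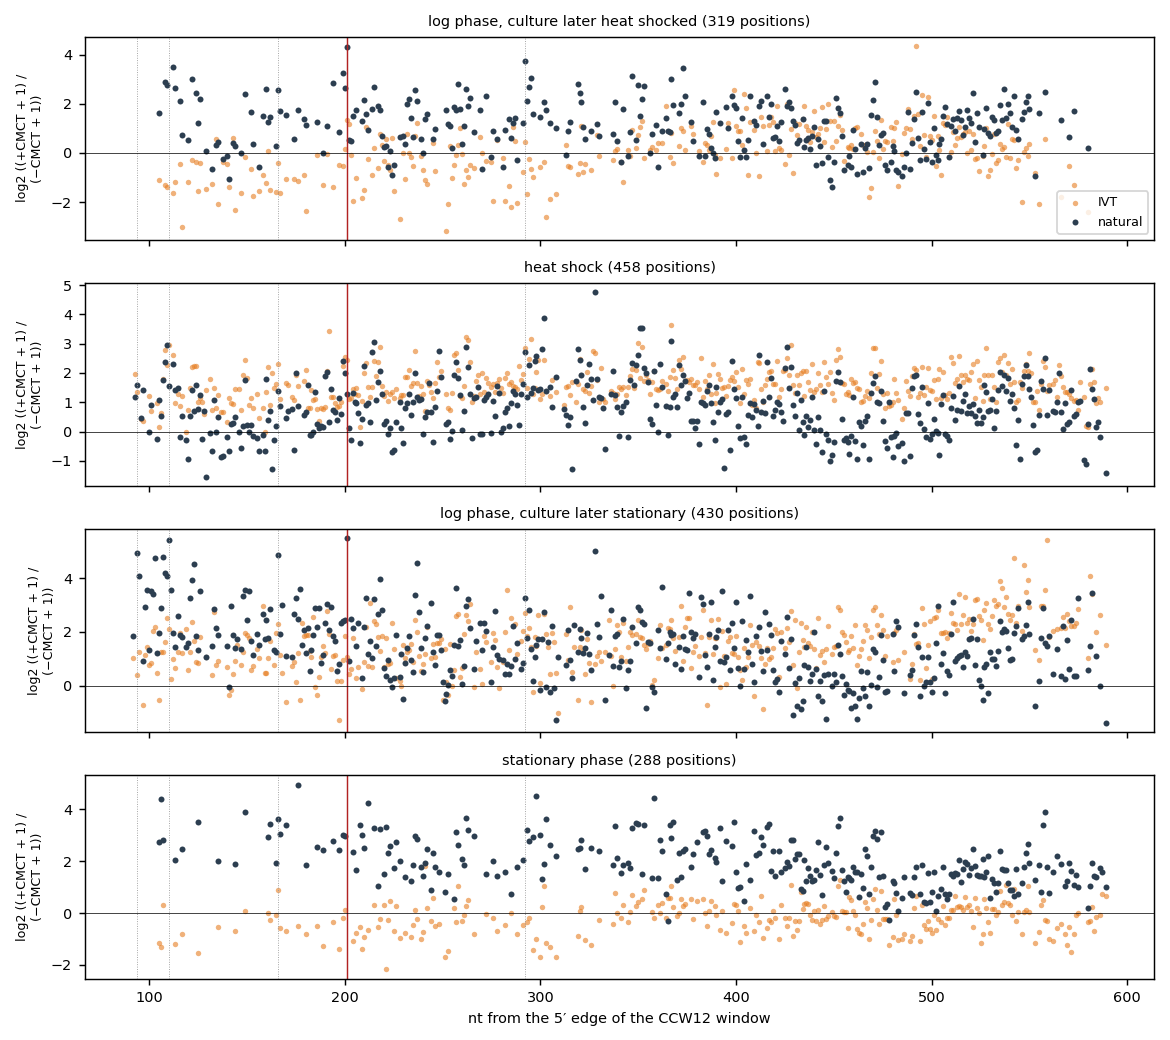
Log2 ratio of +CMCT to −CMCT reads, 1 read added to each, along CCW12 from the 5′ edge of the window, in natural and IVT RNA of the 4 experiments, with a line at 370000 and dotted lines at the other listed positions. At 370000 the natural ratio stands above the IVT ratio in both log experiments, and below it in heat shock, at 1.30 against 2.43.

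Over the 311 CCW12 positions the natural log2 ratios of 2 experiments correlated (Pearson's r, a description, as neighbouring positions share fragments and base composition) at 0.743 for pre-heat-shock log with heat shock, 0.54 for the 2 log experiments and 0.463 for heat shock with pre-stationary log. The IVT ratios correlated at 0.279, 0.212 and 0.441. Within an experiment natural and IVT ratios correlated at 0.66 in heat shock, 0.265 in pre-stationary log and 0.0145 in pre-heat-shock log, where the IVT pair is the conflicting one. In HSP150, over 74 positions, natural ratios correlated at 0.296 to 0.503.

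The only listed position of SPI1, 468447 in its coding region, had 54 natural reads with CMCT and 1 without in the pre-heat-shock log experiment and 33 and 1 in stationary phase. IVT RNA gave 8 and 0, and 4 and 7. In heat shock and pre-stationary log, where SPI1 was low, it had 4 and 0, and 3 and 0 natural reads, too few for a ratio to be read. The natural log2 ratio of 4.78 in pre-heat-shock log stood beside an IVT ratio of 3.17. A listed SED1 position, 602012, lies beyond the SED1 window and was not counted here.

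Several high HSP150 ratios were found in IVT RNA as well. Position 121254 had the highest natural ratio of all members in pre-heat-shock log, with 33 reads against 0, and 50 against 3 in IVT RNA. Position 121053 had the highest mean in HSP150, 3.17 ± 0.49 (SD, n = 3), with IVT log2 ratios of 4.97, 3.43 and 3.64. At 120909 in pre-stationary log the natural reads were 32 and 0 and the IVT reads 49 and 1. Outside pre-heat-shock log the highest HSP150 position of each experiment met the criteria, among them 121133 in pre-stationary log, with 36 and 0 natural reads beside 37 and 4 in IVT RNA.

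HSP150 121485 met the criteria in heat shock with 25 natural reads against 1 (IVT 38 and 17), while in pre-heat-shock log its IVT ratio exceeded the natural one (128 and 5 reads against 55 and 12). In CIS3, where 5 positions had enough reads in all 3 experiments, the 2 highest means, 2.08 ± 0.85 at 122413 and 2.08 ± 0.25 at 122405, both lay in the stretch shared with HSP150. The next, 122409, lies in the stretch too, with natural counts equal to those of its HSP150 partner in 7 of 8 libraries, and its mean was 0.12 ± 0.60.

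SED1 had 13 positions with enough reads in all 3 experiments. The highest means were 1.58 ± 1.11 at 601736 and 1.45 ± 0.23 at both 601073 and 601139, 66 nt apart, whose natural counts were equal. In pre-stationary log SED1 600852 had 37 natural reads with CMCT and 0 without (IVT 21 and 18), but 2 and 4 in pre-heat-shock log. In stationary phase the highest ratio of all members was at SED1 601940, with 50 reads against 0 (IVT 5 and 28), near the 3′ edge of the window, and HSP150 121645 (34 and 0), SPI1 468884 (34 and 0), SPI1 468805 (33 and 0) and CCW12 370025 (61 and 1) followed.

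The test of all 3 non-stationary experiments together asked at each position whether CMCT changed the reads more in natural than in IVT RNA. It was edgeR's quasi-likelihood test of the interaction, with each kind of RNA in each experiment as a block. Its spread came from these 3 experiments, with 4 residual degrees of freedom, although pre-heat-shock log and heat shock came from the same culture. The test called 64 of 467058 positions, 0.0137%, of which 10 were higher in natural RNA. No member position was called, of 2840 tested, and DESeq2 also called none. At an unadjusted p under 0.05 there were 165 member positions in edgeR (5.81%, against 2.73% of all positions) and 124 in DESeq2 (4.37%, against 1.22%), and only 56 of the 165 were higher in natural RNA. These shares moved with read depth. Among positions with at least 50 natural reads edgeR gave 65 of 920 member positions (7.07%), against 6.05% of all positions.

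By gene, 34 of 506 CCW12 positions passed unadjusted, with a median log2 difference of natural minus IVT of 0.26. HSP150 had 97 of 1139 with a median of −0.94, CIS3 17 of 385 with 0.28, SED1 16 of 682 with 0.42 and SPI1 1 of 128 with −1.50. The negative medians belong to HSP150 and SPI1, the genes with a 6.88-fold and 13.1-fold higher IVT level with CMCT than without in pre-heat-shock log. Without that experiment the member median moved from −0.24 to 0.20, and 93 member positions passed unadjusted (4.59%, against 2.15% of all positions), 65 of them higher in natural RNA.

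The member position with the lowest p that was higher in natural RNA was CCW12 370107, at 4.15 ± 1.20 on the log2 scale (edgeR adjusted p = 0.62). CCW12 370092 stood at 2.41 ± 0.97, 370091 at 2.45 ± 1.08, 370000 at 2.18 ± 1.06, 370035 at 1.75 ± 1.03 and 369909 at 1.42 ± 0.93, all with an adjusted p of 1 in edgeR. SPI1 468447 stood at 0.33 ± 0.80. With 1 experiment left out at a time the differences ran from 3.04 to 6.90 at 370107, 1.34 to 4.59 at 370091, 1.02 to 4.35 at 370000, 1.12 to 2.86 at 370035 and 0.70 to 1.97 at 369909, the highest without heat shock at all of these but 369909. Without the pre-heat-shock log experiment they were 3.04, 1.34, 1.52, 1.12 and 0.70, with none called.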

How the data were processed

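PSI-seq maps read ends in 16 libraries of BY4741, with natural and IVT RNA, +CMCT and −CMCT, in each of 4 experiments. The authors fragmented RNA, treated it, sequenced single reads and mapped them, with Bowtie 0.12.5 to sacCer3 per the submitters' processing notes, and the deposited values are whole-number counts of reads ending at each genome position, not normalized. No column went unmatched to a labelled group. The log columns are named by culture, and were not tied to the replicate numbers of the labels. At CCW12 370000 the scores of 7.23 in pre-heat-shock and 5.49 in pre-stationary log equal, when rounded, those the study gives for log replicates 1 and 2. Where a position summed to 50 reads or more, its counts were the same as those of some other position in 52.3% of cases, and library totals took each such set once.

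Reads were summed over the 5 windows and over 1000-nt bins outside them (features with at least 10 reads) and tested in R 4.3.3 with the quasi-likelihood test of edgeR 4.0.16 (limma 3.58.1, TMM, Benjamini-Hochberg, called at 0.05). Positions with at least 10 natural reads over the 3 non-stationary experiments were tested for the CMCT by RNA interaction, with each kind of RNA in each experiment as a block. DESeq2 1.42.0 was an alternative, and further steps used Python 3.11.15. Criteria, ranks and 3′ shares were described with 20 natural reads as the minimum and 1 read added. Both count tests were checked on simulated data. Wall gene and label-check lists were placed only through positions in the study's site table (0 of 8 stationary-phase and 3 of 7 heat-shock genes). Apart from the members, their values are those of the 1000-nt bins that hold these positions. Named positions were the 2 highest means per gene, the 5 highest ratios per experiment, positions on the study's list, and 370000, and others named for a count or a low p were chosen after their values were seen. The members and lists were chosen with earlier results of these data known.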

Additional observations from a re-analysis of the deposited data

How the results depend on the processing

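No alternative called a member in natural RNA or at any position, though the stationary contrast in natural RNA, with 0 features called in edgeR, gave 1053 with DESeq2, 1356 with +CMCT libraries, 1252 with both summed and 1477 without repeated positions. With IVT +CMCT libraries 0 members were called in place of 2 (SPI1 1.70, CIS3 −0.76), and HSP150 turned to −2.38 in heat shock and −1.83 in stationary phase, or to −0.12 and −0.14 under library totals. With the replicate block (log library of the same culture only), signs turned in natural RNA for CIS3 in heat shock (0.57) and HSP150 in stationary phase (0.36), and in IVT RNA in heat shock for CCW12 (0.083), CIS3 (0.034) and SPI1 (0.34). Leaving out either log library, natural heat shock values ran from −0.33 to 0.75 for CCW12 and from −0.49 to 0.57 for CIS3, and natural stationary values from −0.56 to 0.53 for CCW12, −0.90 to 0.17 for CIS3 and −1.89 to 0.36 for HSP150. In IVT RNA they ran in heat shock from −0.86 to 0.083 for CCW12, −0.30 to 0.034 for CIS3 and −1.08 to 0.34 for SPI1, and in stationary phase from −0.51 to 0.019 for SED1. CIS3 in natural heat shock turned to 0.30 with +CMCT libraries and 0.20 with both summed. The cause was not tested. No member position was called without the block either, when 172 positions were. CIS3 without the shared stretch had a heat shock ratio of 2.71.

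SPI1 468447 turned to −0.36 with at least 50 natural reads and lay between −0.41 and −0.26 without heat shock or pre-stationary log, and rose to 2.16 with the offset by the window, 3.24 with all 4 experiments and 3.87 with DESeq2, against 0.33. Member positions meeting the criteria are given with their share against that of all positions. For pre-heat-shock log they numbered 138 with more than 10 reads (8.50% against 4.73%) and 28 with at least 50 (11.3% against 1.27%). There were 47 with 5 reads added (5.10% against 1.16%), 251 without the IVT criterion (27.3% against 17.8%) and 37 relative to the gene (4.02% against 5.16%). For heat shock these were 21 (1.89% against 3.50%), 0 (against 0.450%), 0 (against 0.480%), 134 (19.5% against 18.8%) and 19 (2.77% against 2.96%). Scaling by library totals gave 25 there (3.64% against 2.65%). For pre-stationary log the first 4 settings gave 230 (17.9% against 17.3%), 30 (9.43% against 6.47%), 44 (5.51% against 6.62%) and 324 (40.6% against 38.7%). For stationary phase they were 500 with more than 10 reads (60.5% against 71.8%) and 119 with at least 50 (60.7% against 82.0%). Scaling by totals gave 31 (6.21% against 11.2%) and ratios relative to the gene 17 (3.41% against 4.64%). CCW12 370000 ranked 2 in pre-stationary log with 5 reads added. The 3′ share difference turned with +CMCT libraries to −0.50 for CCW12, −3.64 for HSP150, −9.01 for SED1 and −0.62 for SPI1. Coding regions in place of windows were not run, since the builds differ, and 1000-nt bins became the main features for the same reason. Depth limits SPI1 most, with 0 to 2 positions of enough reads in the 3 non-stationary experiments.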
